A study of Callithrix jacchus with 4 samples.

Results

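Excitatory neurons (ExN) of the marmoset primary visual cortex (V1) were described here as the 14838 nuclei, of 38147 in all, that carried the label ExN in the cell type annotation deposited with the injured and the control cohort. Injured replicate 1 held 1861 of them, injured replicate 2 held 4562, injured replicate 3 held 3013, and the control library held 5402. Each injured library came from 1 adult marmoset whose V1 grey matter, ischaemic core and penumbra included, was taken 7 days after a unilateral injection of endothelin-1 (ET-1), a vasoconstrictor peptide that closes local vessels. The control library pooled V1 tissue of 3 adult marmosets. The labels describe these animals as non-lesioned, and the study's methods count them as uninjured marmosets apart from the injured ones. A legend in the study's supplement instead names contralateral V1 as the uninjured control, and this wording was not reconciled here. The injured animals underwent anaesthesia and cranial surgery for the injection, all animals of both cohorts were killed with an overdose of sodium pentobarbitone, and no transgene was used. Because 3 injured libraries stood against 1 control library, the spread among control animals was not measured, and each test assumed that the control varied as the injured libraries did. The cohorts were also isolated by different protocols, sequenced at different facilities and, per the study's methods, filtered for doublets in different ways, so an effect of ET-1 and an effect of preparation cannot be told apart in any comparison of injured with control below.

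Excitatory neurons are the glutamate-releasing projection neurons of the cortex. They load glutamate into synaptic vesicles with the transporter SLC17A7 (also called VGLUT1), and those of the upper layers carry the transcription factor CUX2. FOXP2 and TLE4 are used as markers of deep-layer neurons that project to the thalamus, but are not confined to them. After ischaemia, neurons of the core die within hours to days, and survivors in the surrounding tissue meet inflammatory signals such as interferons, to which most cell types answer with antiviral genes and with the major histocompatibility complex (MHC) class I pathway that shows peptides to T cells.

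The label was checked against its markers in both cohorts. SLC17A7 stood at 103 CPM (counts per 1000000 UMIs of the cell type) in the injured cohort and 117 in the control library, against 8.02 and 6.84 in inhibitory neurons (InN). The genes of GABA synthesis ran the other way, with GAD2 at 11.9 and 6.81 CPM in ExN against 943 and 672 in InN. CUX1, SYT1, RBFOX3, GRIN2A and CUX2 were each higher in ExN than in any other annotated type of either cohort, although GRIN2A in the control library was at 636 in ExN and 628 in InN. At a common depth of 1000 UMIs per nucleus, an SLC17A7 UMI was found in 9.54%, 10.1% and 8.24% of ExN nuclei of injured replicates 1 to 3 and in 10.4% of control ExN nuclei, compared with 0.651% to 1.16% of InN nuclei, and a GAD1 or GAD2 UMI in 1.22% to 2.16% of ExN nuclei. Unthinned, SLC17A7 was detected in 40.9% to 50.2% of injured and 27.1% of control ExN nuclei. One deposited cluster lay between the labels. Injured cluster 9, annotated as InN, held 329 nuclei with a median of 1610 UMIs, and its SLC17A7 level of 77.5 CPM accompanied a GAD1 level of 131. It made up 12.8% to 18.3% of the InN nuclei of the injured libraries, while the SLC17A7 level in the 4 control InN clusters was at most 8.1 CPM.

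The share of ExN among nuclei was lower in every injured library. ExN made up 24.8% of nuclei in injured replicate 1 (exact 95% interval 23.8 to 25.8), 36.4% in replicate 2 (35.6 to 37.3) and 31.7% in replicate 3 (30.7 to 32.6), a mean of 31.0% ± 5.83 (SD, n = 3), against 62.7% in the control library (61.7 to 63.8). Microglia took 21.5% to 37.6% of nuclei in the injured libraries and 1.498% in the control, so a share of all nuclei also falls when other cells are gained, and loss of ExN and gain of other cells cannot be told apart from it. Among neurons alone the shares lay closer together. ExN formed 82.3% of ExN and InN nuclei in injured replicate 1, 80.6% in replicate 2 and 80.7% in replicate 3 (mean 81.2% ± 0.988, SD, n = 3), compared with 84.2% in the control (83.3 to 85.1). This corresponded to 4.66, 4.16 and 4.17 ExN nuclei per InN nucleus in the injured libraries and 5.34 in the control. Without injured cluster 9 among InN, the injured ratios were 5.43, 4.77 and 5.11, on both sides of the control, and in nuclei with at most 2500 genes the share of neurons had an injured minus control difference of -9.90 percentage points, against -3.03 in all nuclei. No p is given for these shares, because 3 libraries against 1 cannot go below an exact permutation p of 0.25, and the intervals cover counting error only.

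**Figure D1:**
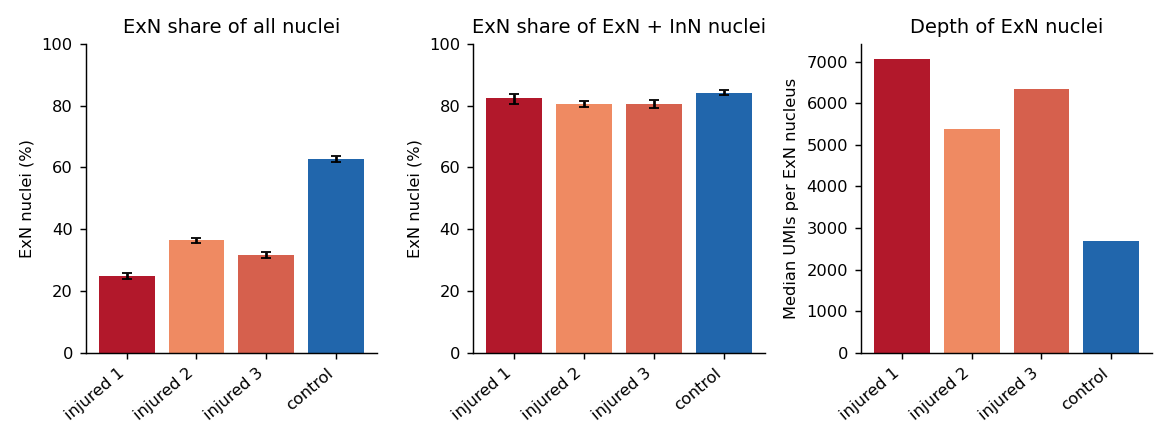
Bars give, for each library, ExN as a percentage of all nuclei (left), ExN as a percentage of ExN and InN nuclei (middle), both with exact 95% intervals, and the median number of UMIs per ExN nucleus (right). The injured libraries lie at 24.8% to 36.4% of all nuclei against 62.7% in the control, whereas their share of neurons lies at 80.6% to 82.3% against 84.2%.

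Depth differed as well. The median ExN nucleus held 7077, 5378 and 6358 UMIs in injured replicates 1 to 3 and 2678 in the control library, and the number of genes in an injured nucleus stopped at 3999, whereas 66 control ExN nuclei held 4000 or more. Nuclei of different libraries shared few barcodes, 15 to 27 per pair of libraries over all nuclei and 0 to 11 over ExN nuclei. To compare levels, the UMIs of all ExN nuclei of a library were summed, giving 12707649, 25238995 and 18899249 UMIs in the injured libraries and 17090029 in the control. A level below is in CPM of the library's ExN UMIs, counted over the genes with a UMI in both cohorts.

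The levels of ExN identity genes were compared between the cohorts. SLC17A7 was at 115, 102 and 94.9 CPM in injured replicates 1 to 3 and at 117 in the control, with a log2 fold change (injured over control) of -0.06 ± 0.13 (SE, adjusted p = 0.76, edgeR). All 3 injured values lay slightly below the control value. CAMK2A, the alpha subunit of the postsynaptic calcium/calmodulin kinase, had values of 365, 350 and 392 against 394. CUX1 stood at 2123 in the control and at 1681 to 1883 in the injured libraries (log2 fold change -0.12, adjusted p = 0.54), but in FOXP2-positive CUX2-negative nuclei alone (284, 564 and 422 injured, 590 control) it was called lower (-0.99, adjusted p = 0.0083). That subset was set by unthinned detection, which rises with depth (for CUX2, 69.8% of nuclei in the injured libraries and 56.3% in the control, but 38.9% and 35.3% at 1000 UMIs), so nuclei counted as CUX2-negative are not the same selection in both cohorts and no change in CUX1 is read from it. Of the 13 genes of the identity list, 0 were called in all ExN beside 2.9% of all genes, so with 13 genes the count lay near the background, with a median log2 fold change of 0.33 beside 0.02 over all 14847 genes tested. A gene was called when its adjusted p was below 0.01, its natural log fold change exceeded 0.25 in size and at least 10% of ExN nuclei of one cohort held a UMI. The 2 identity genes with the smallest p were SLC17A6 (log2 fold change 0.98 ± 0.17, adjusted p = 0.012), a vesicular glutamate transporter more typical of subcortical neurons, and NRGN (0.57 ± 0.12, adjusted p = 0.023), which binds calmodulin in dendritic spines. Both were called with DESeq2 (0.97 and 0.56), and SLC17A6 also without injured replicate 2 (1.03) and without replicate 3 (1.02). TBR1, NEUROD2, NEUROD6, RBFOX3, GRIN2A and SYT1 had log2 fold changes of 0.11, 0.89, 0.49, 0.34, 0.33 and 0.34, with adjusted p from 0.067 to 0.56.

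Layer markers help to tell upper from deep neurons, but not cleanly in these data. Control cluster 3 held FOXP2 at 201 CPM beside CUX2 at 780, and control cluster 12 held TLE4 at 130 beside CUX2 at 932. A share of nuclei with FOXP2 or TLE4 is thus not a share of deep neurons alone. At 1000 UMIs per nucleus, CUX2 was found in 38.9% ± 1.88 (SD, n = 3) of injured ExN nuclei and in 35.3% of control ExN nuclei, and FOXP2 in 9.33% ± 2.07 and 9.01%. Thinning mattered here, since the unthinned shares were 69.8% and 56.3% for CUX2 and 31.9% and 20.2% for FOXP2. The granular-layer gene RORB was found in 47.5% ± 3.71 of injured and 42.8% of control nuclei, the layer 6 gene TLE4 in 10.9% ± 3.03 and 9.72%, and THEMIS, a marker of deep intratelencephalic neurons, in 7.19% ± 0.953 and 8.40%. None of the 19 layer genes tested was called, beside 2.9% of all genes, which for a list of this length is near the background. As a level, CUX2 reached 606, 538 and 655 in the injured libraries and 522 in the control (log2 fold change 0.32 ± 0.14, adjusted p = 0.15), and FOXP2 139, 93.4 and 110 against 97.6 (0.34 ± 0.20, adjusted p = 0.26). For CUX2 the injured libraries all lay above the control, and for FOXP2 they lay on both sides of it. RORB (0.54 ± 0.18, adjusted p = 0.073), TLE4 (0.40 ± 0.35, adjusted p = 0.43) and THEMIS (0.20 ± 0.24, adjusted p = 0.58) also missed the threshold. The smallest p belonged to CTGF, a subplate gene with 63 UMIs in all injured ExN and 2 in control ExN (adjusted p = 0.031), and to CBLN2, a synaptic organiser of superficial neurons, at 3.47, 5.52 and 4.51 CPM against 11.4 (-1.20 ± 0.29, adjusted p = 0.031). The other layer genes (BCL11B, ETV1, FEZF2, HTR2C, IL1RAPL2, LAMP5, NR4A2, NTNG2, OPRK1, RXFP1, SULF1 and SYT6) had log2 fold changes between -0.94 and 1.05 with adjusted p of 0.052 or more.

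**Figure D2:**
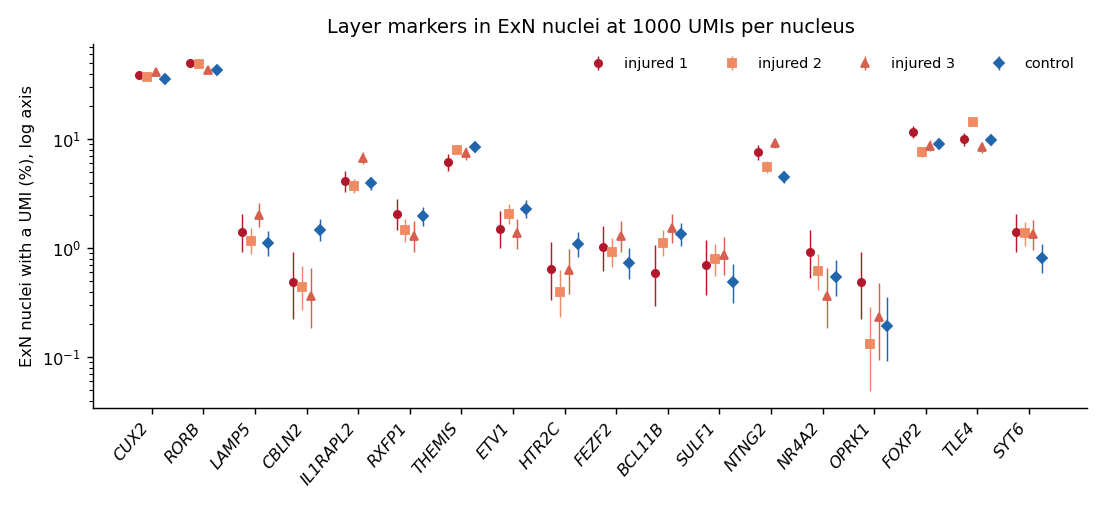
Points give, on a log axis, the percentage of ExN nuclei with a UMI of each of 18 layer markers after every nucleus was thinned to 1000 UMIs, by library, with exact 95% intervals; listed markers that were near 0 in all libraries are not drawn. CUX2 and RORB lie above 35% in all libraries, and CBLN2 shows injured values below the control value.

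The deposited clusters divided the ExN differently in the cohorts, which were clustered separately. In the control, ExN fell into 10 clusters of 89 to 1056 nuclei. The smallest, cluster 18, carried NTNG2 at 1360 CPM, NR4A2 at 185 and OPRK1 at 78.8, a combination known from the deepest cortical neurons, and cluster 10 (323 nuclei) carried TLE4 at 573, FOXP2 at 321 and SYT6 at 175. In the injured cohort, 1 cluster of 5401 nuclei took 57.2% of ExN and held both CUX2 (510) and THEMIS (145), with TLE4 at 138 and FOXP2 at 107. A second cluster of 2455 nuclei had CUX2 at 784, RORB at 1515 and THEMIS at 9.54, and its TLE4 (169) and FOXP2 (116) were above those of the first. This second cluster took 35.7% of ExN in injured replicate 1, 28.6% in replicate 2 and 16.1% in replicate 3. Smaller clusters ran the other way, with cluster 3 at 2.53%, 3.70% and 10.1% of ExN in replicates 1, 2 and 3 and cluster 0 at 1.40%, 2.72% and 9.16%. Clusters 0, 4 and 12 had CUX2 at 878, 861 and 690 CPM and RORB at 1425, 1011 and 1450, levels near those of the second cluster. The share of the second cluster alone is therefore not the share of nuclei with these levels in a library.

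Comparing all ExN of the injured cohort with those of the control, 431 of 14847 genes (2.9%) were called, 321 (2.16%) higher and 110 (0.741%) lower in injured, and in all 431 the injured libraries lay on the same side of the control, as they did above it for 31.8% and below it for 46.7% of all genes tested. Of the 321, 252 had a UMI in fewer than 10% of control ExN nuclei and so met that condition in the injured nuclei alone, which were also the deeper ones. Without injured replicate 1, with 2 libraries against 1, 0 of 14820 genes were called, the smallest adjusted p was 0.021, and 4860 genes had an unadjusted p below 0.05 (edgeR). The 54 called genes chosen for description kept their sign there, and their log2 fold changes moved by a median of 0.06 and at most 0.29. Scaling also moved the balance of directions, since 74.5% of calls were rises with edgeR's TMM scaling and 57.2% with library size alone, under which all genes tested had a median log2 fold change of -0.10. Of the 54 called genes chosen for description, 8 lost their call with library size alone, namely TAP1, LGALS3BP, GABRA2, SCN3A, GRM7, NLGN2, EPHB6 and HSPD1 (adjusted p from 0.010 to 0.014).

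Among called genes with a symbol and at least 20 UMIs in each cohort, the largest rises included genes of antigen presentation and of the interferon response. B2M, the invariant light chain of MHC class I, was at 949, 918 and 579 CPM in injured replicates 1 to 3 and at 6.4 in the control, a log2 fold change of 7.11 ± 0.43 (adjusted p = 0.0016). TAP1, which pumps peptides into the endoplasmic reticulum for loading onto MHC class I, was at 62.9, 71.1 and 26.4 against 1.64 (5.13 ± 0.76, adjusted p = 0.0082). Both genes were lowest in injured replicate 3, and far above the control there too. CD74, the MHC class II invariant chain that microglia use, was at 162, 107 and 82.2 against 3.35 (5.23 ± 0.48, adjusted p = 0.0029). Others of the 8 largest rises were PRODH, which starts proline breakdown (188, 106 and 155 against 8.16, log2 fold change 4.31 ± 0.37), CALCA, the gene of calcitonin and CGRP (29.1, 17.3 and 23.3 against 1.88, 3.73 ± 0.38), FTL, the ferritin light chain (184, 127 and 157 against 13.6, 3.63 ± 0.24), and TFEC, a factor of the MiT family (1854, 1866 and 1552 against 158, 3.60 ± 0.19). TFEC stood at a similar level in every cell type examined, 1401 to 1828 CPM in injured InN, 1479 to 1813 in injured astrocytes and 1552 to 2047 in injured microglia, against 166, 127 and 153 in the control.

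**Figure D3:**
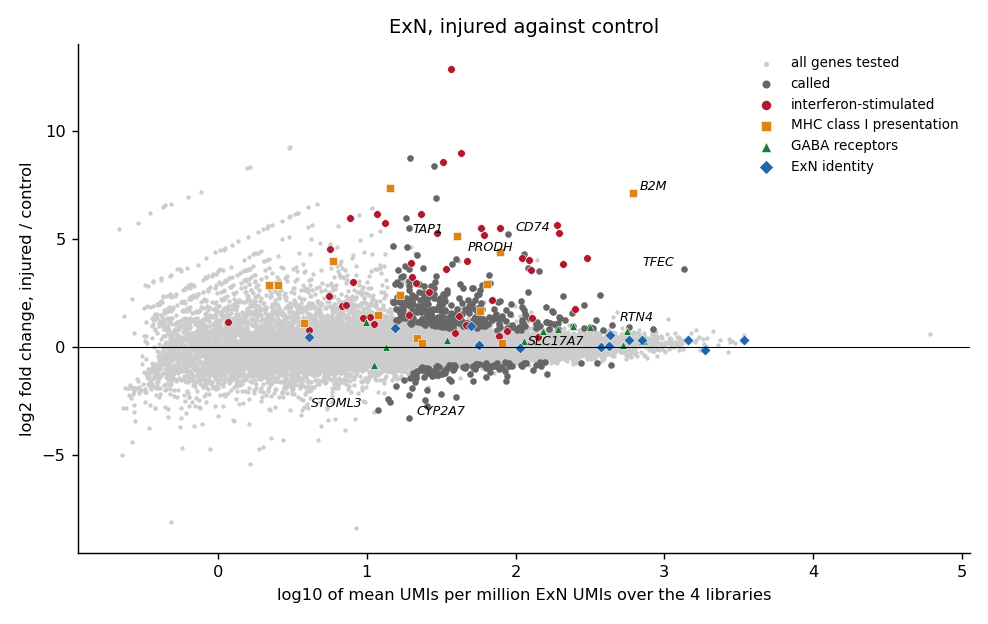
Each point is 1 of the 14847 genes tested in ExN, with the log10 of its mean level over the 4 libraries on the horizontal axis and its log2 fold change, injured over control, on the vertical axis; called genes are dark grey, and members of 4 gene lists are coloured. Interferon-stimulated and MHC class I genes lie above 0, while ExN identity genes lie between -0.12 and 0.98.

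Among interferon-stimulated genes, 5 of 44 tested were called and all 5 were rises (11.4% beside 2.16% of all genes), with a median log2 fold change of 3.39. All 44 fitted values were above 0, and 27 had an adjusted p below 0.05 with a rise, as did 12.2% of all genes. IFI6, an interferon-induced membrane protein, was at 200, 195 and 100 CPM in the injured libraries and 15.2 in the control (3.56 ± 0.46, adjusted p = 0.0060). IFIT3, which acts with other IFIT proteins on viral RNA, had 30.9, 44.9 and 16.2 against 0.47, the latter from 8 UMIs (adjusted p = 0.0077), and LGALS3BP, a secreted glycoprotein, 14.0, 27.5 and 11.1 against 0.352 from 6 UMIs (adjusted p = 0.0088). SAMD9L, chosen after its values were seen, had no UMI in control ExN and 3053 in injured ExN. With the injured libraries pooled this was at least 305-fold higher when 3 control UMIs over the library are allowed, a bound that need not hold in each injured library. The summed level of the list was 3572, 5277 and 1668 CPM in injured replicates 1, 2 and 3 and 666 in the control.

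Of the 15 tested members of the MHC class I pathway 5 were called, all higher (33.3% beside 2.16% of all genes), with a median log2 fold change of 2.86. Besides B2M and TAP1 these were the peptide-loading chaperones CALR (86.5, 73.5 and 85.9 against 11.9, log2 fold change 2.90 ± 0.17, adjusted p = 0.0014) and CANX (63.1, 68.8 and 76.7 against 23.6, 1.68 ± 0.17, adjusted p = 0.0038), and PSMB10, an immunoproteasome subunit (24.1, 20.0 and 18.5 against 4.23, 2.41 ± 0.24, adjusted p = 0.0033). CALR and CANX also fold glycoproteins in general, and in contrast to B2M and TAP1 they were not lowest in injured replicate 3. CAJA-E, a marmoset MHC class I heavy chain gene outside the list and chosen after its values were seen, rose from 9.22 to a mean of 85.4 CPM (log2 fold change 3.32, adjusted p = 0.0037), but reads of related MHC class I genes may be split between copies.

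Microglia of the same libraries held several of these transcripts at higher levels. In injured microglia B2M reached 3278 to 6810 CPM, and the ExN level was 13.5% to 26.1% of it. For CD74 the ExN level was 6.87% to 15.95% of the microglial one, for FTL 11.2% to 18.7%, and for CALCA 3.25% to 6.69%, whereas for IFI6 it was 53.6% to 83.6% and for PRODH 68.1% to 87.3%. The summed level in ExN of the 7 microglia markers listed for both cohorts was 185 to 284 CPM in the injured libraries and 117 in the control, and 98.8 to 122 and 113 without CD74. C1QB, another microglia marker of the study, was not listed for the control and is not in these sums. It was at 29.6, 19.1 and 16.3 CPM in ExN of injured replicates 1 to 3. Whether microglial RNA in ExN differed between the cohorts was not tested. P2RY12, a purinergic receptor of homeostatic microglia, was at 13.3, 12.2 and 12.7 CPM in ExN of injured replicates 1 to 3 and at 18.4 in control ExN, and none of the 7 was at 0. CD74 was the only microglia marker called (14.3% of the list beside 2.9% of all genes). Of 5 oligodendrocyte markers 1 was called (20.0%), and none of 6 astrocyte, 3 endothelial, 3 oligodendrocyte precursor or 8 inhibitory neuron markers was called. GFAP (3.55, 2.54 and 4.56 against 0.294), IGFBP7 (19.2, 17.6 and 23.9 against 8.87), MEGF11 (116, 103 and 135 against 165) and GAD2 (10.6, 11.4 and 13.3 against 6.81) each had the smallest p of its list. Levels were also taken in ExN nuclei that lacked such markers. In ExN nuclei without a UMI of 11 glial and vascular markers (225, 1163 and 636 injured and 3375 control nuclei, chosen after the data were seen) the log2 fold change was 6.92 for B2M, 5.13 for TAP1, 3.51 for FTL and 4.52 for PRODH, all still called. CALCA had 3.41 there and was no longer called (adjusted p = 0.00065, a UMI in under 10% of nuclei), and 9 of the 54 called genes chosen for description lost their call in this subset. A stricter subset left out nuclei with a UMI of any glial or vascular marker in the study's own marker lists. Below, these are named nuclei without any listed marker of another type. Markers of InN were not used for it, nor were C1QB, CSF1R, PTPRC and APBB1IP, so nuclei with UMIs of those genes could remain. It held 26, 208 and 97 injured and 1065 control nuclei, and 83 genes were called higher and 18 lower there. Of the 54 genes, 21 kept their call and 31 lost it. B2M (7.04), TAP1 (5.62), FTL (3.09), PRODH (4.74), IFI6 (3.80) and CALR (2.69) were still called. CALCA (3.87, adjusted p = 0.013), LGALS3BP (4.48, adjusted p = 0.027) and PSMB10 (1.73, adjusted p = 0.14) were not, and ALDOA had 0.76 there in place of 1.51 (adjusted p = 0.32) and HSPD1 0.54 in place of 1.11 (adjusted p = 0.70). Fewer nuclei and UMIs enter this subset, and how much of each lost call belongs to that was not tested.

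Some inhibitory receptor and sodium channel genes were higher in injured ExN by smaller steps. They were not particular to ExN. In InN the GABA receptor list had a median log2 fold change of 0.53 with 2 genes called higher. The sodium and calcium channel list had 0.62 there with 3, beside 1.89% of all genes tested in InN. Of 13 GABA receptor genes tested 3 were called, all higher (23.1% beside 2.16% of all genes). GABRA2, a subunit of the GABA-A receptor through which ExN receive inhibition, was at 217, 203 and 223 CPM against 129 in the control (log2 fold change 0.85 ± 0.12, adjusted p = 0.0069). The injured values lay close together and clear of the control. The list's median was 0.33, and GABRB2 and GABRG3, chosen after their values were seen, had adjusted p of 0.22 and 0.46. SCN2A, the sodium channel of the axon initial segment, was at 639, 674 and 642 against 372 (0.93 ± 0.13, adjusted p = 0.0067), and SCN3A at 404, 354 and 349 against 215 (0.89 ± 0.13, adjusted p = 0.0077). Of 22 sodium and calcium channel genes 3 were called, all higher (13.6% beside the same 2.16%, median 0.35). In nuclei without any listed marker of another type GABRA2 (0.52, adjusted p = 0.41), SCN2A (0.76, adjusted p = 0.11) and SCN3A (0.65, adjusted p = 0.23) were not called.

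Glutamate receptor, transmitter release, postsynaptic and potassium channel lists each held 1 called gene, or 3.03% to 4.55% of their tested members beside 2.16% of all genes called higher. GRM7, a presynaptic metabotropic glutamate receptor, was the 1 called of 22 glutamate receptor genes (950, 952 and 891 against 566, log2 fold change 0.83 ± 0.13, adjusted p = 0.0088), with a list median of 0.38. GRIN1, the obligatory NMDA receptor subunit, had a lower level (15.2, 14.4 and 14.4 against 34.5, -1.12, adjusted p = 0.0060), but a UMI in under 10% of nuclei of either cohort kept it from being called, and it was chosen after its values were seen. RAB3A, a small GTPase of synaptic vesicles (32.7, 38.8 and 34.5 against 11.4, 1.75 ± 0.19, adjusted p = 0.0040), was called among 27 transmitter release genes. NLGN2, the adhesion protein of inhibitory synapses (42.0, 38.4 and 42.2 against 22.7, 0.97 ± 0.14, adjusted p = 0.0082), was called among 27 postsynaptic genes, whose median was 0.04. KCNF1, a modulatory potassium channel subunit (17.04, 26.5 and 29.3 against 3.7, 2.84 ± 0.39, adjusted p = 0.0072), was called among 33 potassium and HCN channel genes. None of these 4 called genes kept its call in nuclei without any listed marker (adjusted p from 0.021 to 0.22). Of 18 calcium handling genes 0 were called, beside 2.9% of all genes, which is near the background for so short a list. ATP2B1, the plasma membrane calcium pump (0.90 ± 0.18, adjusted p = 0.020), and CALM2 (0.57 ± 0.11, adjusted p = 0.018) had the smallest p.

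**Figure D4:**
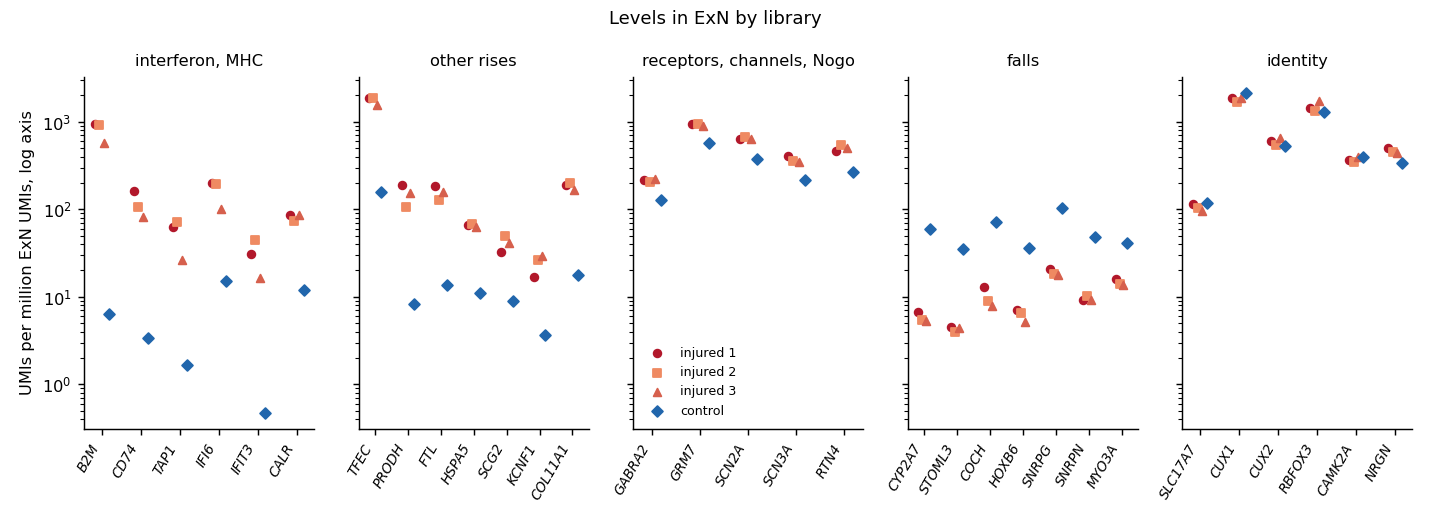
Points give the level of 31 genes in ExN (CPM, log axis) in each of the 4 libraries, grouped by the heading above each panel. In the first 3 panels the injured libraries lie above the control and in the fourth below it, whereas in the identity panel most injured and control points overlap or lie close together.

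Chaperones of the endoplasmic reticulum, heat shock proteins and glycolytic enzymes each gave 2 calls. HSPA5, the endoplasmic reticulum chaperone BiP, was at 66.2, 68.5 and 62.7 CPM against 10.9 (2.71 ± 0.16, adjusted p = 0.0014) and HSP90B1, its partner GRP94, at 93.3, 105 and 114 against 34.3 (1.72 ± 0.17, adjusted p = 0.0033), among 18 genes of the unfolded protein and integrated stress responses (median 0.78, 11.1% called higher beside 2.16% of all genes). HSPH1 (114, 130 and 136 against 62.0, 1.15 ± 0.16) and the mitochondrial chaperonin HSPD1 (26.5 to 30.1 against 14.2, 1.11 ± 0.17) were called among 16 heat shock genes (12.5%, median 0.17). Of 23 hypoxia and glycolysis genes the aldolases ALDOA (70.6, 61.7 and 67.4 against 25.3, 1.51 ± 0.14) and ALDOC (37.9, 42.6 and 33.9 against 15.7, 1.40 ± 0.19) were called (8.70%), and the list's median was 0.20. Of these 6 genes HSPA5 alone was still called in nuclei without any listed marker of another type (2.40). None of the 21 cell death genes was called, beside 2.9% of all genes. TNFRSF1A, the receptor of tumour necrosis factor (11.6, 11.6 and 9.86 against 2.06, adjusted p = 0.0038), was seen in too few nuclei, and BCL2L2, an inhibitor of apoptosis, had an adjusted p of 0.020.

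Of 26 genes of axon injury and growth 2 were called (7.69% beside 2.16% of all genes). MARCKS, a membrane-bound regulator of actin (37.8, 38.8 and 35.04 against 10.5, 1.95 ± 0.17, adjusted p = 0.0027), and STMN4, a stathmin that regulates microtubules (57.4, 71.6 and 62.3 against 27.8, 1.32 ± 0.18, adjusted p = 0.0073), were the ones called, and the list's median was 0.47. Among 24 immediate early and activity genes SCG2, a secretogranin of dense-core vesicles, was called (32.3, 49.8 and 41.6 against 8.93, 2.33 ± 0.30, adjusted p = 0.0060), and of 36 axon guidance genes EPHB6, an Eph receptor without kinase activity (66.3, 58.8 and 90.1 against 22.8, 1.77 ± 0.27, adjusted p = 0.0089). These single calls were 4.17% and 2.78% of their lists beside 2.16% of all genes called higher, near the background. None of the 19 cytoskeletal genes was called, beside 2.9% of all genes, which for a list of this length is near the background. NEFL, the neurofilament light chain, was at 27.9, 41.0 and 29.0 against 10.7 (1.74 ± 0.29, adjusted p = 0.012) and TUBA1A had an adjusted p of 0.017. RTN4, the gene of the neurite growth inhibitor Nogo, was the 1 called of 10 Nogo and Nogo receptor genes tested (beside 2.16% of all genes called higher), at 468, 545 and 497 CPM against 266 (1.04 ± 0.15, adjusted p = 0.0078). The injured values lay clear of the control, while RTN3, a reticulon of the same family chosen after its values were seen, was at 744 to 823 against 986 (adjusted p = 0.27), and the list's median was 0.15. In nuclei without any listed marker RTN4 had a log2 fold change of 0.61 and was not called (adjusted p = 0.27), nor were MARCKS (1.62, adjusted p = 0.043), STMN4 (0.96, adjusted p = 0.20) and EPHB6 (1.75, adjusted p = 0.014). Of 15 neurotrophin genes and receptors 0 were called, beside 2.9% of all genes, again near the background. NTF3 (neurotrophin 3) had 58 UMIs in all injured ExN and 89 in the control (-2.21 ± 0.30, adjusted p = 0.0066, in too few nuclei), and the sorting receptor SORT1 was at 99.5 to 100.3 against 157 (-0.54 ± 0.10, adjusted p = 0.017).

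Genes of the cytosolic ribosome gave the largest count of any list, 20 of 59 called, all higher (33.9% beside 2.16% of all genes), with a median log2 fold change of 0.90. RPS28 was at 92.8, 83.7 and 81.4 CPM against 11.98 (2.96 ± 0.15) and RPL27 at 42.7, 34.4 and 34.6 against 4.11 (3.29 ± 0.22), and FAU, which encodes ribosomal protein S30, at 64.4, 54.7 and 58.4 against 17.4 (1.88 ± 0.15). RPL27A was at 46.7, 36.0 and 34.5 against 0.352, from 6 UMIs in 5402 control nuclei (6.87 ± 0.36, adjusted p = 0.0014), and it was also low in control InN (0.325) and control astrocytes (1.16). Injured replicate 1 held the highest level of 50 of the list's 60 listed genes. Of 53 respiratory chain genes 7 were called, all higher (13.2% beside 2.16%), among them CYC1 of complex III (29.4, 21.5 and 27.3 against 5.58, 2.33 ± 0.24), COX4I1 of complex IV (1.43 ± 0.16) and NDUFA1 (1.76 ± 0.20) and NDUFB11 (1.74 ± 0.20) of complex I. The summed level of that list was 1678 to 1752 CPM in the injured libraries and 1706 in the control, which lay within the injured range. In nuclei without any listed marker of another type RPS28, RPL27 and RPL27A were still called, whereas FAU (1.56, adjusted p = 0.014), CYC1 (2.67, adjusted p = 0.021), COX4I1 (1.13, adjusted p = 0.14), NDUFA1 (2.97, adjusted p = 0.023) and NDUFB11 (0.97, adjusted p = 0.62) were not.

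The largest falls among called genes with a symbol and at least 20 UMIs in each cohort did not belong to any of the gene lists. CYP2A7, a cytochrome P450 gene, was at 6.63, 5.36 and 5.25 CPM against 59.7 (-3.27 ± 0.17, adjusted p = 0.0014), STOML3, a stomatin-like modulator of mechanosensitive channels, at 4.50, 3.97 and 4.40 against 34.8 (-2.91 ± 0.17, adjusted p = 0.0014), and COCH, an extracellular matrix protein, at 13.1, 9.05 and 7.90 against 71.2 (-2.73 ± 0.23, adjusted p = 0.0027). The injured values all lay far below the control. HOXB6 (-2.42 ± 0.20), the spliceosome genes SNRPG (-2.32 ± 0.13) and SNRPN (-2.20 ± 0.16), ADAMTS3, a procollagen-processing protease (-2.17 ± 0.13), and THAP8 (-1.97 ± 0.17) completed the 8 largest. HOXB6, STOML3 and SNRPN lost their call in nuclei without any listed marker of another type, the first pair with adjusted p of 0.00089 and 0.0029 but a UMI in too few nuclei. Outside ExN, CYP2A7 was at 47.8 in control InN, 75.5 in control astrocytes and 48.4 in control microglia, against 2.01 to 19.7 in the same types of the injured libraries. SNRPG and SNRPN have near copies elsewhere in primate genomes, so their counts are uncertain.

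The injured ExN were next compared with the inhibitory neurons of the same libraries. The difference between the ExN and the InN change was called for 2 of 14566 genes (0.0137%, adjusted p below 0.01), and 15 (0.103%) had an adjusted p below 0.05, while 914 had an unadjusted p below 0.05. On simulated counts, in which other genes were changed, this test called more unchanged genes than the 2 called here. Those counts held many true changes, so they do not tell whether these 2 calls are false. Both are given as calls of the test and not as established differences. COL11A1, a fibrillar collagen chain, was at 191, 200 and 168 CPM in injured ExN against 17.9 in the control and at 232, 235 and 184 in injured InN against 59.2, and the fitted ExN rise exceeded the InN one by 1.495 on the log2 scale (adjusted p = 0.0093). MYO3A, an unconventional myosin, fell in ExN from 41.5 to 15.9, 13.9 and 13.7, while in InN it was at 97.9, 97.3 and 102 against 100.6, a difference of -1.52 (adjusted p = 0.0093). Neither was called when the library was not kept as a block (adjusted p = 0.42 and 0.21), and leaving cluster 9 out of InN left differences of 1.48 and -1.60, both called. Without injured replicate 1 both had an adjusted p of 0.015, and at 1000 UMIs per nucleus MYO3A had one of 0.011. Of the interferon list none of 44 and of the MHC class I list none of 15 differed at an adjusted p below 0.05. In InN itself 13 interferon genes were called higher (beside 1.89% of all genes tested there) with a list median of 3.68, but a gene called in 1 type and not in the other is not thereby shown to differ. All 321 genes called higher in ExN had an InN log2 fold change above 0. Of the 110 called lower in ExN, 109 had one below 0 in InN. Also called higher in InN were 19 of 58 cytosolic ribosome genes (list median 1.12) and 3 of 22 glutamate receptor genes (0.51).

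Against astrocytes more genes were called, 77 of 14634 (0.526%), 48 with a change more positive and 29 with one more negative in ExN. The count was 6 with library size alone and 0 when the library was not a block. No difference given below, those of CD44 and KLF6 included, was therefore called without the block. PRODH stood at 152 CPM in control astrocytes and 149 to 255 in injured astrocytes, so that its rise in ExN exceeded the astrocyte change by 3.87 (adjusted p = 8.3e-05). CAMK2A, which was not called in ExN, was at 19.2, 18.5 and 17.01 in injured astrocytes against 62.7 (difference 1.75, adjusted p = 0.0092), and lost its call under either other scaling (adjusted p = 0.011 and 0.016), without injured replicate 1 (0.040) and when the library was not a block (0.031). CD44, the hyaluronan receptor, and KLF6, a zinc finger factor of injured axons and glia, were chosen after their values were seen. CD44 was at 17.5, 12.4 and 16.4 in injured ExN against 15.5, but at 373, 438 and 513 in injured astrocytes against 19.7 (difference -4.44, adjusted p = 0.0031). KLF6 was at 21.8, 23.1 and 18.3 against 13.0 in ExN and at 132, 188 and 141 against 5.80 in astrocytes (-3.97, adjusted p = 0.0058).

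The injured libraries differed among themselves by wide margins in interferon genes. Over the 9822 genes with at least 100 ExN UMIs in every injured library, the highest and lowest library differed by a median of 0.24 on the log2 scale, and 192 genes differed by more than 1. The interferon list had 38 genes at that depth with a median range of 1.75, and 31 of them differed by more than 1. Injured replicate 2 was highest and replicate 3 lowest in 37 of the 38, with replicate 1 between them. PARP14, a mono-ADP-ribosyltransferase, was at 100.3, 180 and 30.0 CPM in replicates 1, 2 and 3 against 2.53 in the control, OAS3, which senses double-stranded RNA, at 38.7, 65.3 and 13.1 against 1.12, MOV10, an RNA helicase, at 24.5, 50.3 and 7.42 against 1.47, and SP110, a nuclear body protein, at 21.3, 41.9 and 5.67 against 3.0. All 4 followed the same order. SPP1 (osteopontin), abundant in activated microglia, ran differently, at 80.8, 15.6 and 66.0 against 3.64, and its microglial level in the same libraries was 433, 76.8 and 404. HBB, a haemoglobin chain of red blood cells, was at 8.12, 43.4 and 27.0 against 1.17. These 6 genes had the widest ranges among genes with a symbol, and none of them was called between the cohorts (adjusted p from 0.025 to 0.097). With 1 CPM added to each level and no limit on UMIs, the median range was 0.18 in the identity list and 1.64 in the interferon list.

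**Figure D5:**
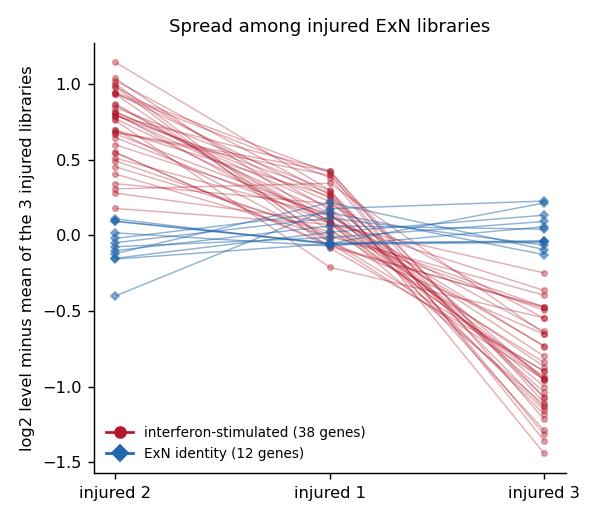
Lines join the level of a gene in the ExN of injured replicates 2, 1 and 3, as log2 CPM minus the mean of the 3 libraries, for 38 interferon-stimulated and 12 ExN identity genes with at least 100 UMIs in each. Interferon genes run from high in replicate 2 to low in replicate 3, while identity genes stay near 0.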

How the data were processed

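Per the labels and the study's methods, nuclei of snap-frozen V1 were profiled on the 10x platform, reads were aligned to marmoset calJac3 with Ensembl gene models (Cell Ranger 3.1.0, per the submitters' processing notes), and, per the study's methods, doublets were removed with Scrublet in the injured cohort and by an upper limit of 2500 genes in the control. Of the deposited control ExN nuclei, 17.9% held more genes than that limit, so it was not applied to them, and no doublet caller was run here. The deposited tables hold raw UMI counts per gene and nucleus (32323 genes injured, 16383 control), with the authors' library name, cell type and cluster of each nucleus. From these, UMI counts of nuclei labelled ExN, InN or Astro were summed per library. Of 16383 genes listed in both tables, 456 had no UMI in any injured nucleus and were left out, leaving 15927. Of 3356 Ensembl identifiers, 970 were given a symbol from a reference table.

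edgeR 4.0.16 (R 4.3.3; filterByExpr, TMM, quasi-likelihood F test, Benjamini-Hochberg) tested injured against control, and ExN minus InN or astrocytes with library as a block. SE is the fitted log2 fold change divided by the root of F. The fits were tested on simulated counts with known changes. The smaller of these changes were mostly missed in each comparison, so a gene not called is not thereby unchanged. Shares carry exact (Clopper-Pearson) 95% intervals. Each nucleus was thinned to 1000 UMIs for shares of nuclei with a UMI, leaving out shallower nuclei (6, 32 and 16 injured, 250 control). Alternatives included DESeq2 1.42.0, other scalings, nuclei subsets and leaving out each injured library.

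Named genes were the 8 largest rises and falls among called symbol genes with at least 20 UMIs in each cohort, up to 4 called members of each list (or the 2 with the smallest p), all identity and layer genes, the genes called between ExN and InN, and the 6 widest ranges among injured libraries. Exceptions are said to be chosen after their values were seen. Some genes that the rule selected are not reported here. The nuclei, gene lists and tests were chosen with earlier results of these data known. No column was left unmapped (0).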

Additional observations from a re-analysis of the deposited data

Results flagged for a closer look

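COL11A1 and MYO3A were singled out because an interaction test called a difference between cell types in the change from control to injured. The log2 change in ExN minus that in InN was 1.495 for COL11A1 and -1.52 for MYO3A. On simulated counts, in which many other genes were changed, the same test called more unchanged genes than these 2, which does not tell whether these 2 calls are false. PRODH and CAMK2A were singled out in the same way against astrocytes, with differences of 3.87 and 1.75. The PRODH difference was called under both other scalings and without each injured library in turn, and had an adjusted p of 0.029 (edgeR) when the library was not a block. The CAMK2A difference was called without injured replicate 2 or 3, but not without replicate 1 (adjusted p = 0.040), under either other scaling or when the library was not a block (0.031).

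Some genes had UMIs in injured ExN but were not listed in the control table, so no injured and control level can be set side by side. There were 4136 such genes, which held 0.211% of the injured ExN UMIs. GBP1, an interferon-induced GTPase, had 1552 ExN UMIs, at 23.7, 39.2 and 13.8 CPM in injured replicates 1, 2 and 3. CXCL10, an interferon-induced chemokine, had 978, at 11.7, 27.1 and 7.73. Both followed the order of the interferon list. So did their higher levels in the microglia of the same libraries, 188, 495 and 139 CPM for GBP1 and 187, 669 and 121 for CXCL10. The complement genes C1QC (1404 UMIs) and C1QB (1166 UMIs) stood at 36.7, 23.7 and 17.99 and at 29.6, 19.1 and 16.3 CPM, against 326 to 560 and 354 to 609 in the microglia of the same libraries. Microglia are the usual source of C1QC and C1QB. How much of the ExN value of any of these genes, GBP1 and CXCL10 included, is free microglial RNA was not tested.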

How the results depend on the processing

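No paired analysis was possible because the control was 1 pooled library, so no injured library had a control library of its own. The library was a block only in the differences between cell types. Injured against control, the 321 higher and 110 lower genes became 758 and 393 with DESeq2, 999 and 728 at an adjusted p below 0.05, 60 and 24 at 1000 UMIs per nucleus (where fewer genes reach 10% of nuclei by construction), 156 and 32 in nuclei with at most 2500 genes, 83 and 18 in nuclei without any listed marker of another type, and 66 and 26 in FOXP2-positive CUX2-negative nuclei. With every listed gene, 189 were lower. Leaving out 1 injured library gave 0 to 605 higher and 0 to 246 lower, with 0 reached without injured replicate 1. The 2 genes called for ExN minus InN became 0 with no library block (406 with an unadjusted p below 0.05), 8 with no filter on low counts, 1 at 1000 UMIs, 15 at an adjusted p below 0.05, and 0 to 174 with 1 library left out (0 without injured replicate 1, where 850 had an unadjusted p below 0.05). The 77 for ExN minus astrocytes became 44 with DESeq2 size factors, 6 with library size alone, 0 with no library block (2076 with an unadjusted p below 0.05), 466 at an adjusted p below 0.05, and 2 to 389 with 1 library left out. The causes were not tested. The ExN share of nuclei, injured minus control, moved from -31.8 percentage points to -45.7 in nuclei with at most 2500 genes and -39.3 in nuclei with at least 1000 UMIs, and the share of neurons from -3.03 to -9.90 with at most 2500 genes and -0.66 without injured cluster 9 among InN. Unthinned, the difference was 13.5 points for CUX2 and 11.7 for FOXP2, and leaving out 1 injured library gave 2.55 to 4.40 for CUX2 and -0.83 to 1.17 for FOXP2, the negative value without replicate 1. Of 54 named called genes none reversed, all 54 kept their call with DESeq2 and with no filter, 46 with library size alone and 14 at 1000 UMIs. Nuclei with fewer than 4000 genes, nuclei without 11 glial or vascular markers, and InN without cluster 9 were alternatives chosen after seeing the data. The control had no replicate, so its depth and spread limit each comparison.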
